A study of Mus musculus with 9 samples.

Results

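Transcripts of 10 genes encoding activin and bone morphogenetic protein (BMP) ligands and the proteins that bind or block them were followed in whole mouse bladders. The genes were picked by symbol, each matching a single row, out of 53342 genes in the deposited table: Inhba, Inhbb, Fst, Fstl3, Bmp2, Bmp4, Bmp7, Grem1, Nog and Bambi. All 10 passed the filter on low counts, as did 19314 genes in all, and Grem1 and Fst passed it through the H2O2-infused libraries, where they were higher. Nog passed it through H2O2/saline 1 and 3 and control 2 and 3, and through no H2O2/SB431542 library. The study asked how a TGF-β inhibitor acts in bladders injured by hydrogen peroxide, a mouse model of interstitial cystitis. RNA of 9 bladders was sequenced, 3 in each of 3 groups, all from female wild-type C57BL/6N mice aged 8 weeks and sampled on day 10. H2O2/SB431542 mice had 1.5% H2O2 infused into the bladder on day 0 and were injected into the abdominal cavity with 1.2 mM SB431542 on days 0 and 4. H2O2/saline mice had the same infusion and saline injections on the same days. Control mice are labelled untreated, whereas by the methods of the study they had saline in place of H2O2 put into the bladder, and its results call them sham. The series describes the samples of a group as biological replicates, and libraries are named here by group and replicate number. A piece of whole bladder wall mixes urothelium, muscle, stroma and blood cells, so fewer cells of a type and less RNA per cell cannot be told apart.

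Activins and BMPs are secreted dimers of the TGF-β superfamily that signal through paired type I and type II receptor kinases and Smad proteins. Activins act through Smad2 and Smad3, BMPs through Smad1, Smad5 and Smad9. SB431542 blocks the activin and TGF-β type I receptor kinases and spares those of the BMPs. Secreted antagonists bind the ligands outside the cell: follistatin, from Fst, and its relative from Fstl3 hold activins, whereas gremlin 1, from Grem1, and noggin, from Nog, hold BMPs. Bambi encodes a membrane protein that resembles a type I receptor but lacks the kinase domain.

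The start regions of Grem1 and Inhba are shown because Grem1 had the largest fitted fold change against control and Inhba had separate levels in both H2O2-infused groups against control. RefSeq sequence (GRCm38.p6) was matched for 5 of the 10 genes: Inhba, Inhbb, Fstl3, Bmp4 and Grem1. Each window of 300 bases spans the gene start, reads in the direction of transcription, and lies at chr2:113758599-113758898 on the minus strand for Grem1 and at chr13:16011601-16011900 on the plus strand for Inhba. Capitals mark matches to any of 4 motifs searched on both strands: the Smad-binding letters CAGAC and GGCGCC, the AP-1 letters TGANTCA and the TATA box letters TATAAA.
Grem1: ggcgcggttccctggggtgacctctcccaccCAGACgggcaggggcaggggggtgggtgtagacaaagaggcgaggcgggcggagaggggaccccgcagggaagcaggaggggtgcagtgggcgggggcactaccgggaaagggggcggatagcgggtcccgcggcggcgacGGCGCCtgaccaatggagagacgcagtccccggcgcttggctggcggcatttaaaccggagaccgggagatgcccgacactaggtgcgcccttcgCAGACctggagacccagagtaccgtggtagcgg
Inhba: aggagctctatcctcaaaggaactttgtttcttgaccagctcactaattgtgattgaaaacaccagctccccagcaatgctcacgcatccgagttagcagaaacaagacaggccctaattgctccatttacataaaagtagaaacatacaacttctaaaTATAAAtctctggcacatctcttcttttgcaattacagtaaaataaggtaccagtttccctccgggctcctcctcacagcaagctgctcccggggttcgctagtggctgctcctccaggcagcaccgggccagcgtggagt
The Grem1 window held 2 CAGAC and 1 GGCGCC with a GC content of 70.7%, and the Inhba window held 1 TATAAA with a GC content of 47.7%. The Fstl3 window held 2 CAGAC and 1 TATAAA, and those of Inhbb and Bmp4 held none of the 4. Of 32817 mouse promoter windows of the same length, 49.6% held CAGAC, 11.9% GGCGCC, 7.81% TGANTCA and 13.6% TATAAA. A match describes letters only.

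Libraries held 37329213 to 41055328 counts and were similar in depth. H2O2/saline 1 stood apart from its group: on the first principal component of log2 CPM (counts scaled to a common library total) it lay at -42.3, against 86.4 and 112 for H2O2/saline 2 and 3, and control libraries lay between -61.5 and -38.8. H2O2/SB431542 1 also lay at -42.3, with the other H2O2/SB431542 libraries at 26.5 and 10.1. Many results below that rest on H2O2/saline 1 are therefore also given without it. That library was singled out in these same data, near the controls, so a p-value without it is a description and not further support. Genes called in H2O2/saline against control rose from 10 to 1822 when it was left out. Summed leukocyte and endothelial marker levels were above control in every library of both H2O2-infused groups. Sums of smooth muscle, mesothelium, skeletal muscle and Schwann cell markers overlapped between H2O2/saline and control. Smooth muscle sums were 19838 to 26450 CPM in H2O2/saline and 17962 to 40591 CPM in control bladders. The 7 leukocyte markers summed to 99.2 to 150.3 CPM in H2O2/SB431542, 111 to 207 CPM in H2O2/saline and 69.9 to 83.5 CPM in control bladders. The 4 endothelial markers summed to 102 to 122 CPM, 100.02 to 196 CPM and 79.5 to 99.8 CPM in the same order of groups, and the 5 fibroblast markers to 2759 to 4177 CPM, 3547 to 3715 CPM and 1583 to 2878 CPM. In H2O2/saline against control, 4 of the 5 fibroblast markers had a positive log2 fold change and Dcn a negative one, -0.52. Of the leukocyte markers, Cd79a and S100a8 were at 0 in 3 libraries each, and no endothelial or fibroblast marker was at 0 in any. The 4 adipocyte markers summed to 13.8, 32.6 and 60.3 CPM in the libraries numbered 1 of H2O2/SB431542, H2O2/saline and control, and to 0.206 to 0.914 CPM in the other 6 libraries. The part of these shifts in the values of the 10 genes was not tested. The 6 urothelial markers, uroplakin and keratin genes, were abundant in every library, with sums of 12264 to 15687 CPM in H2O2/SB431542, 10899 to 19322 CPM in H2O2/saline and 14590 to 22588 CPM in control bladders, and none was at 0. In H2O2/saline against control, 1 of the 6 was higher and 2 were lower at an unadjusted p under 0.05, beside 9.88% and 7.96% of all genes.

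**Figure D1:**
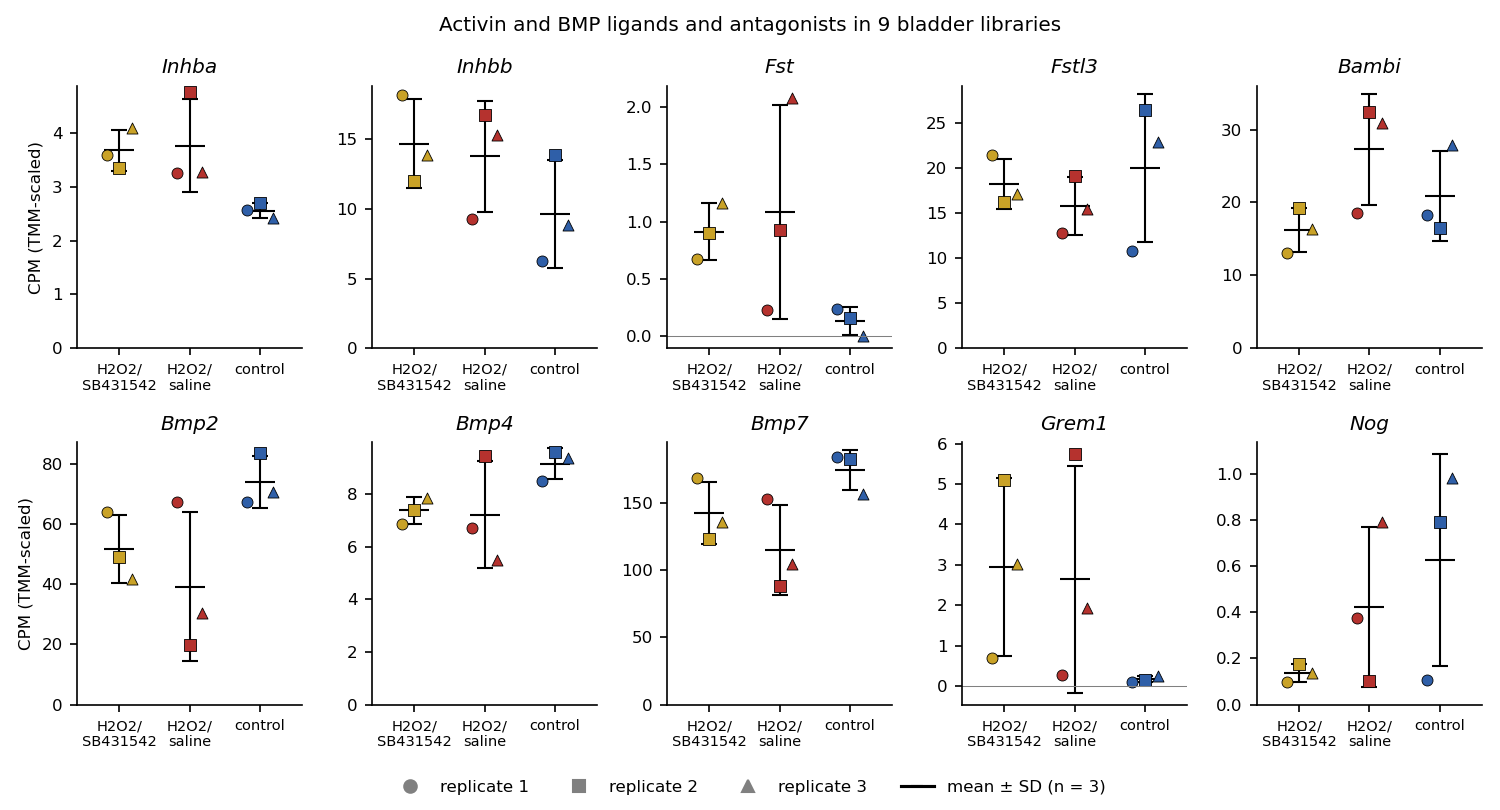
CPM of each of the 10 genes in 9 bladder libraries (vertical axes, each with its own range), by group: H2O2/SB431542, H2O2/saline and control. Symbols give the replicate, bars the mean ± SD of 3 libraries; Grem1 and Fst sat at or below 0.258 CPM in all control libraries and reached 5.74 and 2.08 CPM in H2O2/saline bladders.

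Bmp7 was the most abundant of the 10 transcripts when CPM was divided by exon length, at 35.5 ± 5.81 CPM per kb in H2O2/SB431542, 28.7 ± 8.35 CPM per kb in H2O2/saline and 43.5 ± 3.80 CPM per kb in control bladders (SD, n = 3 each). In control bladders Bmp2 followed with 20.8 ± 2.43 CPM per kb and Fstl3 with 8.20 ± 3.36 CPM per kb. Bambi, Bmp4 and Inhbb came next, at 4.12 ± 1.21, 4.07 ± 0.260 and 2.26 ± 0.907 CPM per kb, and Bambi and Bmp4 did not differ beyond their spread. Inhba and Nog lay at 0.401 ± 0.0212 and 0.369 ± 0.271 CPM per kb, again within the spread. Grem1, at 0.0419 ± 0.0186 CPM per kb, and Fst, at 0.0288 ± 0.0264 CPM per kb, were the lowest and did not differ beyond their spread. In control bladders Bmp7 and Bmp2 RNA was thus the most abundant of the 10 and Grem1 and Fst RNA the least. In H2O2/saline bladders Grem1 averaged 0.637 ± 0.677 CPM per kb and in H2O2/SB431542 bladders 0.708 ± 0.530 CPM per kb, next to Inhba at 0.589 ± 0.135 and 0.576 ± 0.0591 CPM per kb.

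In H2O2/saline bladders, against control, the RNA of 2 antagonists, Grem1 and Fst, was higher and that of 2 BMP ligands, Bmp7 and Bmp2, was lower, but no gene of the 10 passed the test of all genes. The test was edgeR's quasi-likelihood test on all 9 libraries with Benjamini-Hochberg adjustment over 19314 genes, at an adjusted p under 0.05, which called 0.0518% of all genes. At an unadjusted p under 0.05 the 4 genes just named passed, 4 of 10 beside 17.8% of all genes. The groups did not overlap for Grem1 and Inhba, higher, and Bmp2 and Bmp7, lower, also 4 of 10, beside 18.7% of all genes. Grem1 and Fst entered the test through the H2O2-infused libraries, where they were higher. The 10 genes were also chosen with earlier results of these data known, so these shares are a description and not support. DESeq2 called Grem1 and Fst, and called 6.87% of the genes it tested. Without a filter on low counts, edgeR called Bmp2, Fst and Grem1, beside 4.72% of all genes. The median log2 fold change of the 10 genes was 0.02, and that of all genes -0.02.

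Grem1, the BMP-binding gremlin 1, had 0.260, 5.74 and 1.93 CPM in H2O2/saline bladders, against 0.106, 0.158 and 0.258 CPM in control bladders. H2O2/saline 1 lay next to the highest control, whereas H2O2/saline 2 and 3 lay far above. The control values rest on 3.50 to 10.5 expected counts per library. The log2 fold change was 3.90 ± 1.03 (SE), with an edgeR adjusted p of 0.0876. With the replicate number as a block, a pairing that the labels do not give, it was 3.31 (edgeR adjusted p = 0.0278), beside 4.79% of all genes called. Without H2O2/saline 1 the log2 fold change was 4.39 (edgeR adjusted p = 0.00509, 9.43% of all genes called), and without H2O2/saline 2 it was 2.64 (edgeR adjusted p = 0.334). DESeq2 gave an adjusted p of 0.000756 and limma-voom 0.399, so the call depended on the tool and on H2O2/saline 1.

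Fst, encoding follistatin, had 0.231, 0.931 and 2.08 CPM in H2O2/saline bladders, against 0.238, 0.158 and 0 CPM in control bladders. The groups overlapped through H2O2/saline 1, which lay between controls. Control 3 had no Fst count, which allows up to 0.0773 CPM (3 counts), and control 1 and 2 had 9.33 and 6 expected counts. Its log2 fold change was 3.01 ± 1.07 (SE), with an edgeR adjusted p of 0.171 and a DESeq2 adjusted p of 0.0295. It was 3.43 without H2O2/saline 1 (edgeR adjusted p = 0.0505), 2.11 without H2O2/saline 3 (edgeR adjusted p = 0.451) and 2.45 without control 3 (edgeR adjusted p = 0.352). With the replicate block the edgeR adjusted p was 0.207.

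Bmp2, a BMP ligand expressed in many epithelia and stromal cells, had 67.4, 19.9 and 30.4 CPM in H2O2/saline bladders, against 67.5, 83.8 and 70.6 CPM in control bladders. H2O2/saline 1 was level with the lowest control and the other H2O2/saline libraries were well below. For Bmp2 the log2 fold change was -0.91 ± 0.36 (SE), with an edgeR adjusted p of 0.211. Without H2O2/saline 1 it was -1.60 (edgeR adjusted p = 0.00249), beside 9.43% of all genes called. With libraries 2 and 3 of each group only, it was -1.65 (edgeR adjusted p = 0.00139), beside 13.1% of all genes called.

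Bmp7, a ligand of epithelia with roles in kidney and urogenital development, had 153, 88.4 and 105 CPM in H2O2/saline bladders, against 185, 183 and 157 CPM in control bladders. All H2O2/saline libraries were below all controls, by the least for H2O2/saline 1. For Bmp7 the log2 fold change was -0.60 ± 0.22 (SE), with an edgeR adjusted p of 0.184. Without H2O2/saline 1 it was -0.90 (edgeR adjusted p = 0.0184), beside 9.43% of all genes called. With the replicate block, Bmp2 had an edgeR adjusted p of 0.0658 and Bmp7 of 0.0541, so neither was called. Markers of the urothelium went both ways, 3 of the 6 with a positive log2 fold change. Upk1b and Krt20 had log2 fold changes of 0.23 and 0.19 (edgeR adjusted p = 0.595 and 0.777). Upk3a, a uroplakin, had 4116, 1599 and 1635 CPM in H2O2/saline bladders, against 5394, 4190 and 4534 CPM in control bladders. Its log2 fold change was -0.94 ± 0.33 (SE, edgeR adjusted p = 0.168). Upk1a and Upk2 had log2 fold changes of -0.79 and -0.85 (edgeR adjusted p = 0.286 and 0.204, and 0.046 and 0.042 with the replicate block). Krt5, a keratin of basal urothelial cells, had 4117, 4496 and 3872 CPM in H2O2/saline bladders, against 2461, 1393 and 979 CPM in control bladders, with a log2 fold change of 1.37 ± 0.31 (SE, edgeR adjusted p = 0.0679, and 0.0135 with the replicate block). The part of these markers in the Bmp2 and Bmp7 values was not tested. Bmp2 and Bmp7 levels ran together over the 9 libraries (Pearson r = 0.96 on log2 CPM, which share group and library effects).

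The other ligands had smaller fold changes. Bmp4, a ligand of mesenchyme, had 6.70, 9.44 and 5.50 CPM in H2O2/saline bladders, against 8.48, 9.58 and 9.38 CPM in control bladders, with overlap and a log2 fold change of -0.34 ± 0.26 (SE, edgeR adjusted p = 0.538). Inhba, the subunit of activin A, had 3.26, 4.76 and 3.27 CPM in H2O2/saline bladders, against 2.56, 2.69 and 2.42 CPM in control bladders. All H2O2/saline libraries were above all controls, and the log2 fold change was 0.56 ± 0.31 (SE, edgeR adjusted p = 0.389). Inhbb, the subunit of activin B, had 9.27, 16.8 and 15.3 CPM in H2O2/saline bladders, against 6.24, 13.8 and 8.84 CPM in control bladders. The groups overlapped and the log2 fold change was 0.52 ± 0.32 (SE, edgeR adjusted p = 0.448).

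The remaining antagonists and the pseudoreceptor also overlapped between groups. Fstl3 had 12.8, 19.1 and 15.4 CPM in H2O2/saline bladders, against 10.8, 26.5 and 22.9 CPM in control bladders, with a log2 fold change of -0.34 ± 0.30 (SE, edgeR adjusted p = 0.617). Nog had 0.375, 0.103 and 0.792 CPM in H2O2/saline bladders, against 0.106, 0.792 and 0.979 CPM in control bladders, and rested on 4 to 38 expected counts. Its log2 fold change was -0.56 ± 0.99 (SE, edgeR adjusted p = 0.833), so that a difference in either direction of several fold was within its 95% interval, -2.71 to 1.60. Bambi had 18.5, 32.4 and 30.9 CPM in H2O2/saline bladders, against 18.3, 16.5 and 27.9 CPM in control bladders. H2O2/saline 2 and 3 were above all controls and H2O2/saline 1 was among them, with a log2 fold change of 0.38 ± 0.27 (SE, edgeR adjusted p = 0.516). Without H2O2/saline 1 the log2 fold changes were 0.60 for Inhba, 0.69 for Inhbb, -0.34 for Bmp4, -0.26 for Fstl3, -0.52 for Nog and 0.55 for Bambi, and none of these passed the test.

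**Figure D2:**
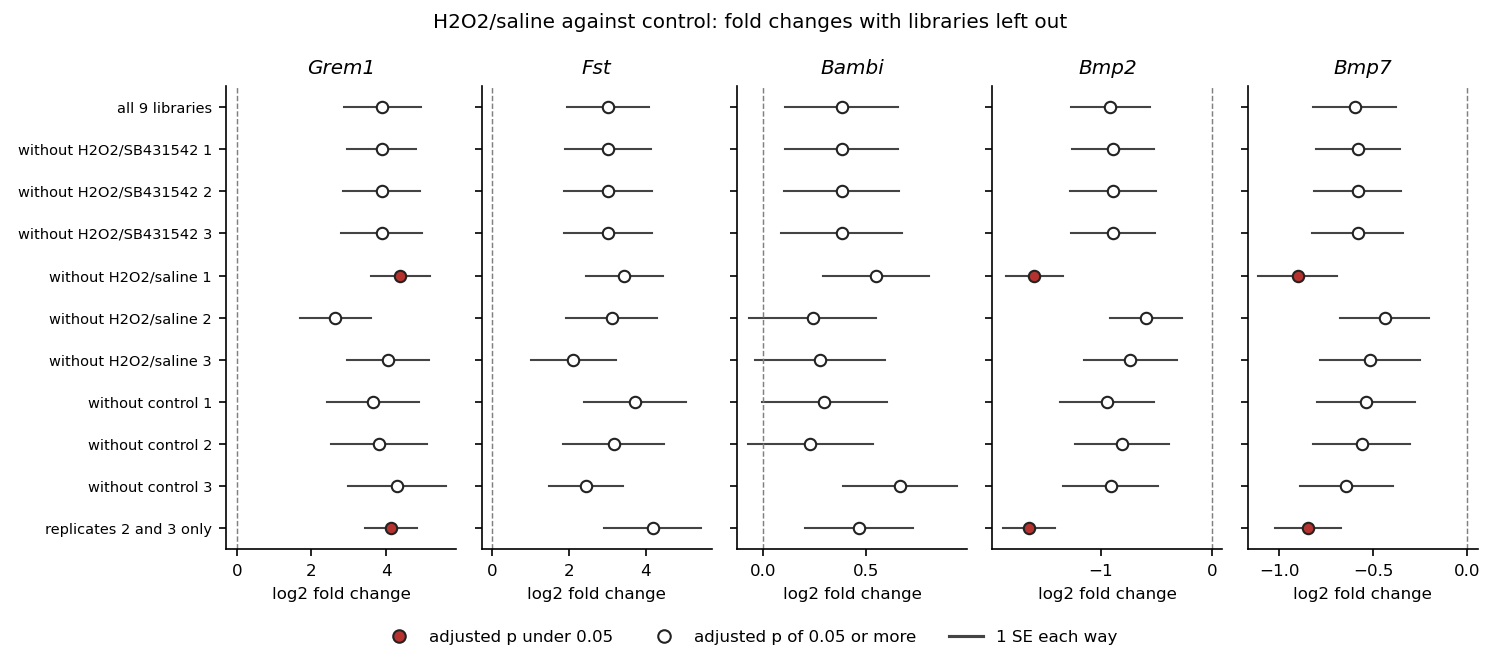
Log2 fold change of 5 genes in H2O2/saline against control (horizontal axes) when each library, or all libraries numbered 1, were left out (rows); bars are 1 SE each way and filled points have an edgeR adjusted p under 0.05. Filled points appear for Grem1, Bmp2 and Bmp7 without H2O2/saline 1 and with replicates 2 and 3 only, and Fst and Bambi have none.

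In H2O2/SB431542 bladders, against H2O2/saline bladders, no gene of the 10 passed the test, and the pseudoreceptor Bambi and the antagonist Nog had the most negative fold changes. edgeR's quasi-likelihood test called 0 of 10 genes and 0% of all genes, DESeq2 called 0 of 10 and 0.174% of its genes, limma-voom called 0 of 10, and 1 gene, Bambi, had an unadjusted p under 0.05, beside 8.83% of all genes. No gene of the 10 had groups that did not overlap, beside 15.8% of all genes. The median log2 fold change of the 10 genes was 0.06, and that of all genes 0.02.

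Bambi had 13.1, 19.2 and 16.3 CPM in H2O2/SB431542 bladders, against 18.5, 32.4 and 30.9 CPM in H2O2/saline bladders. The groups overlapped only through H2O2/SB431542 2 and H2O2/saline 1. Bambi had a log2 fold change of -0.75 ± 0.28 (SE, 95% interval -1.35 to -0.15), with an edgeR adjusted p of 0.528. It was -0.93 without H2O2/saline 1 (edgeR adjusted p = 0.103), in a fit that kept H2O2/SB431542 1, the library with the lowest Bambi of its group. Bambi is a known transcriptional target of TGF-β family signals in cultured cells.

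For BMP ligands the fold changes were positive and small. Bmp2 had 64.1, 49.1 and 41.7 CPM in H2O2/SB431542 bladders, against 67.4, 19.9 and 30.4 CPM in H2O2/saline bladders. H2O2/SB431542 libraries were all above H2O2/saline 2 and 3 and all below H2O2/saline 1. The log2 fold change was 0.40 ± 0.36 (SE, 95% interval -0.38 to 1.18, edgeR adjusted p = 0.781), and 1.08 without H2O2/saline 1 (edgeR adjusted p = 0.0639). Bmp7 had 169, 123 and 136 CPM in H2O2/SB431542 bladders, against 153, 88.4 and 105 CPM in H2O2/saline bladders, with a log2 fold change of 0.31 ± 0.22 (SE, 95% interval -0.17 to 0.79, edgeR adjusted p = 0.715). Without H2O2/saline 1 it was 0.60 (edgeR adjusted p = 0.162). The fits without H2O2/saline 1 kept H2O2/SB431542 1, which also lay near the controls on the first principal component. That library had the highest Bmp2 and Bmp7 of its group, so these larger fold changes rest in part on it. Bmp4 had 6.85, 7.40 and 7.86 CPM in H2O2/SB431542 bladders, within the range of H2O2/saline bladders, and a log2 fold change of 0.03 (95% interval -0.53 to 0.59).

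Activin subunits and antagonists showed intervals that ran both ways. Grem1 had 0.700, 5.10 and 3.02 CPM in H2O2/SB431542 bladders, against 0.260, 5.74 and 1.93 CPM in H2O2/saline bladders, with a log2 fold change of 0.15 (95% interval -1.75 to 2.06), which was -0.34 without H2O2/saline 1. Fst had 0.676, 0.900 and 1.17 CPM in H2O2/SB431542 bladders, against 0.231, 0.931 and 2.08 CPM in H2O2/saline bladders, with a log2 fold change of -0.24 (95% interval -2.34 to 1.85). Nog had 0.0965, 0.175 and 0.137 CPM in H2O2/SB431542 bladders, against 0.375, 0.103 and 0.792 CPM in H2O2/saline bladders. Nog was low in all H2O2/SB431542 libraries, at 4 to 7 expected counts, and its log2 fold change was -1.62 ± 1.04 (SE, 95% interval -3.88 to 0.65, edgeR adjusted p = 0.682). Nog passed the filter on low counts through H2O2/saline and control libraries only, which favours a negative fold change here. Inhba had 3.60, 3.35 and 4.09 CPM in H2O2/SB431542 bladders and a log2 fold change of -0.03 (95% interval -0.71 to 0.64). Inhbb had 18.2, 12.0 and 13.8 CPM and Fstl3 21.4, 16.3 and 17.1 CPM in H2O2/SB431542 bladders, with log2 fold changes of 0.09 (95% interval -0.61 to 0.79) and 0.21 (95% interval -0.45 to 0.87). For each of these 6 genes the H2O2/SB431542 and H2O2/saline ranges overlapped.

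**Figure D3:**
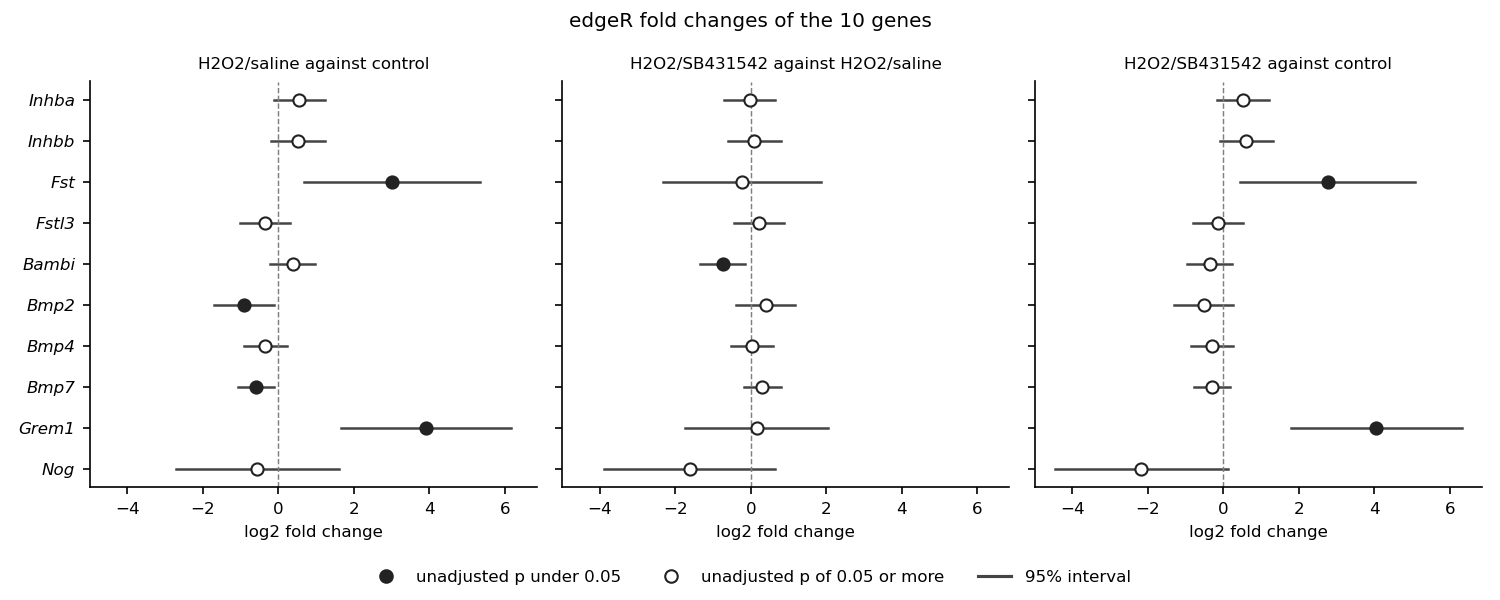
Log2 fold change of the 10 genes with its 95% interval in each of the 3 comparisons (horizontal axes); filled points have an unadjusted edgeR p under 0.05. Grem1 and Fst lie between 2.76 and 4.05 in both comparisons with control, which share their control libraries, and Bambi at -0.75 is the filled point of H2O2/SB431542 against H2O2/saline.

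In H2O2/SB431542 bladders, against control, Grem1, Fst and Inhba were higher and Bmp2 and Bmp4 lower in every H2O2/SB431542 library than in any control library. That is 5 of 10 genes without overlap, beside 14.5% of all genes, but edgeR's adjusted p called none of the 10 and 0.0155% of all genes. At an unadjusted p under 0.05 Grem1 and Fst passed, beside 7.61% of all genes, and DESeq2 called Grem1 and 0.836% of its genes. Without a filter on low counts, edgeR called Grem1 and 1.31% of all genes, and with the replicate block none of the 10 and 0.181%. This comparison and the one of H2O2/saline share the control libraries. As there, Grem1 and Fst entered the test through the H2O2-infused libraries, so the shares of the 10 genes are a description and not support. The log2 fold change was 4.05 ± 1.04 (SE, edgeR adjusted p = 0.359) for Grem1, and with H2O2/saline 1 left out of the common fit the edgeR adjusted p was 0.0437, beside 0.43% of all genes called. With libraries 2 and 3 of each group only, Grem1 had a log2 fold change of 4.25 (edgeR adjusted p = 0.0114), beside 2.32% of all genes called. Fst had a log2 fold change of 2.76 ± 1.07 (SE, edgeR adjusted p = 0.552).

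For the ligands the 95% intervals of the difference from control included 0. The log2 fold change was -0.52 ± 0.36 (SE, edgeR adjusted p = 0.849) for Bmp2, -0.31 ± 0.26 (SE, edgeR adjusted p = 0.905) for Bmp4 and -0.29 ± 0.22 (SE, edgeR adjusted p = 0.883) for Bmp7. Inhba had a log2 fold change of 0.52 ± 0.31 (SE, edgeR adjusted p = 0.785) and Inhbb of 0.61 ± 0.32 (SE, edgeR adjusted p = 0.729). Nog, with 0.0965, 0.175 and 0.137 CPM in H2O2/SB431542 bladders, against 0.106, 0.792 and 0.979 CPM in control bladders, had a log2 fold change of -2.17 ± 1.05 (SE, edgeR adjusted p = 0.675). Control 1 lay within the H2O2/SB431542 range of Nog, which passed the filter on low counts through H2O2/saline and control libraries only. Fstl3 and Bambi had log2 fold changes of -0.13 and -0.37.

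The ratio of ligand to antagonist RNA within a library, which does not depend on its depth, was compared as a description, since 3 libraries against 3 cannot reach an exact p below 0.1. The ratio of Bmp4 to Grem1 was 9.79, 1.45 and 2.61 in H2O2/SB431542, 25.8, 1.64 and 2.85 in H2O2/saline, and 80.3, 60.5 and 36.4 in control bladders. All control ratios were above all others, but control Grem1 rests on 3.50 to 10.5 expected counts per library. Grem1 was level in H2O2/saline 1 and control 3, at 0.260 and 0.258 CPM, so their ratios differ through Bmp4. The ratio of Inhba to Fst was 5.32, 3.72 and 3.51 in H2O2/SB431542, 14.1, 5.11 and 1.57 in H2O2/saline, and 10.8, 17.0 and at least 31.3 in control bladders, where control 3 had no Fst count and the bound assumes 3. H2O2/SB431542 ratios lay below all controls, and H2O2/saline 1 was among the controls. The ratio of Inhbb to Fst was 26.9, 13.3 and 11.9 in H2O2/SB431542, 40.1, 18 and 7.36 in H2O2/saline, and 26.2, 87.3 and at least 114 in control bladders, with overlap. The ratio of Bmp7 to Nog was 1748, 706 and 991 in H2O2/SB431542, 407, 855 and 132 in H2O2/saline, and 1746, 231 and 161 in control bladders, with overlap and few Nog counts.

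**Figure D4:**
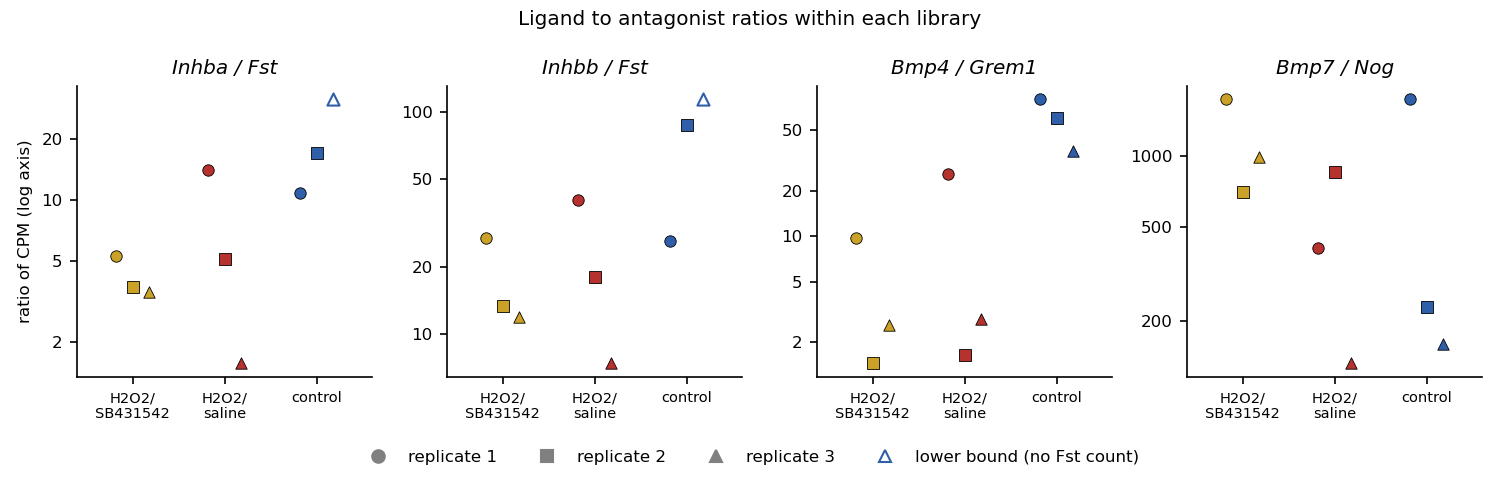
Ratio of CPM of a ligand to that of an antagonist in each library (log axes), by group: H2O2/SB431542, H2O2/saline and control. Symbols give the replicate and the open triangle is a lower bound for control 3, which had no Fst count; Bmp4 to Grem1 is 36.4 or more in all control libraries and 25.8 or less in the other 6.

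Other genes of the pathway were read from 8 lists: other ligands, antagonists, receptors, Smads and genes known to be induced by BMPs or activins. edgeR called no listed gene in any of the 3 comparisons with all libraries. Without H2O2/saline 1, it called 14 of the 62 listed genes tested in H2O2/saline against control, beside the 9.43% of all genes called there. Among the 14 were Id1, Id3, Id4, Pmepa1, Gdf10, Bmp3, Chrdl1 and Eng. Of the 8 BMP-induced genes tested, 7 had a negative log2 fold change in H2O2/saline against control, and at an unadjusted p under 0.05, which 7.96% of all genes met in the negative direction, 5 were lower and 1 was higher. The median of the list was -0.65, beside -0.02 for all genes. Id4, an inhibitor of differentiation, had 22.0, 18.3 and 18.7 CPM in H2O2/saline bladders, against 41.01, 143.6 and 64.6 CPM in control bladders. All H2O2/saline libraries, H2O2/saline 1 included, were below all controls, and Id4 had a log2 fold change of -2.08 ± 0.40 (SE, edgeR adjusted p = 0.060, and 0.0261 with the replicate block). Id1 had a log2 fold change of -0.70 ± 0.22 (SE, edgeR adjusted p = 0.126). Hey1, a Notch and BMP target, went the other way, at 3.00, 3.28 and 3.07 CPM in H2O2/saline bladders, against 0.899, 0.106 and 1.39 CPM in control bladders (log2 fold change 1.96, edgeR adjusted p = 0.162).

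In H2O2/SB431542 against control, 4 BMP-induced genes were lower at an unadjusted p under 0.05, beside 3.24% of all genes, and the list median was -0.89. Id1 had 74.6, 110.2 and 108 CPM in H2O2/SB431542 bladders, against 208, 257 and 205 CPM in control bladders. Its log2 fold change was -1.20 ± 0.22 (SE, edgeR adjusted p = 0.194), with no overlap. Between H2O2/SB431542 and H2O2/saline, Id4 was higher and Id1 and Hey1 lower at an unadjusted p under 0.05, 3 of 8 beside 8.83% of all genes, with a list median of -0.19. Hey1 had 0.965, 0.700 and 0.800 CPM in H2O2/SB431542 bladders, below the 3.00 to 3.28 CPM of H2O2/saline bladders.

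Of the 6 activin-induced genes tested, 3 were higher in H2O2/saline against control at an unadjusted p under 0.05, beside 9.88% of all genes, and none was lower. Pmepa1, a feedback inhibitor of TGF-β signals, had 98.7, 292 and 249 CPM in H2O2/saline bladders, against 76.7, 110.5 and 73.6 CPM in control bladders (log2 fold change 1.29 ± 0.33, edgeR adjusted p = 0.0827, and 0.0332 with the replicate block). Tgif1, a repressor of Smad targets, had a log2 fold change of 0.75 ± 0.23 (SE, edgeR adjusted p = 0.123). In H2O2/SB431542 against H2O2/saline no activin-induced gene had an unadjusted p under 0.05. Pmepa1 had a log2 fold change of -0.49 there (edgeR adjusted p = 0.692).

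Among other BMP and growth differentiation factor ligands, Gdf10 had 8.32, 16.1 and 16.6 CPM in H2O2/saline bladders, against 5.97, 4.07 and 4.64 CPM in control bladders. Its H2O2/saline libraries were all above control, with a log2 fold change of 1.48 ± 0.31 (SE, edgeR adjusted p = 0.060, and 0.0288 with the replicate block). In H2O2/SB431542 bladders Gdf10 had 4.78, 5.398 and 6.42 CPM, all below H2O2/saline, with a log2 fold change against H2O2/saline of -1.31 ± 0.31 (SE, edgeR adjusted p = 0.528). Gdf10 was called there by DESeq2 and, without H2O2/saline 1, by edgeR, beside 1.02% of all genes. Bmp3, which encodes an antagonist of other BMPs, had 60.3, 41.5 and 45.8 CPM in H2O2/saline bladders, against 75.0, 96.7 and 123 CPM in control bladders. It had a log2 fold change of -0.999 ± 0.22 (SE, edgeR adjusted p = 0.0653, and 0.0290 with the replicate block). Bmp5 had a log2 fold change of -1.06 ± 0.45 (SE, edgeR adjusted p = 0.244).

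Of 12 other secreted antagonists tested, 2 were higher and 3 lower in H2O2/saline against control at an unadjusted p under 0.05, beside 9.88% and 7.96% of all genes. Chrdl1, a chordin-like BMP antagonist, had 3.00, 3.52 and 2.77 CPM in H2O2/saline bladders, against 6.69, 12.5 and 8.35 CPM in control bladders. The groups did not overlap, and the log2 fold change was -1.57 ± 0.37 (SE, edgeR adjusted p = 0.0679, and 0.0416 with the replicate block). Twsg1 had a log2 fold change of -0.54 ± 0.24 (SE, edgeR adjusted p = 0.272). The antagonist list thus held members of both signs, with a median of -0.22.

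No receptor or Smad gene passed the test. The 4 tested activin receptor genes had a list median of -0.21 in H2O2/saline against control and none an unadjusted p under 0.05. The smallest was that of Acvr2a, a type II receptor, with a log2 fold change of -0.63 ± 0.29 (SE, edgeR adjusted p = 0.293). Of 9 BMP receptors and co-receptors, Eng, an endothelial co-receptor, was higher (log2 fold change 0.87 ± 0.29, edgeR adjusted p = 0.150, and 0.0387 with the replicate block). The type I receptor gene Bmpr1a was lower (log2 fold change -0.81 ± 0.29, edgeR adjusted p = 0.171, and 0.0388 with the replicate block), as was the type II receptor gene Bmpr2 (log2 fold change -0.72 ± 0.24, edgeR adjusted p = 0.149). Of the 4 endothelial markers, 3 had a positive log2 fold change in the same comparison and Kdr had -0.06 (edgeR adjusted p = 0.956). Their sums are given above, and their part in the Eng value was not tested. Among 8 Smads, Smad9 had a log2 fold change of -0.93 ± 0.32 (SE, edgeR adjusted p = 0.154), Smad6 of -0.72 ± 0.33 and Smad5 of -0.32 ± 0.25. Of the list labelled other activin-like ligands, 5 genes were tested and none had an unadjusted p under 0.05. The log2 fold changes were -0.91 ± 0.48 for Inha, 0.84 ± 0.45 for Gdf11 and 1.62 ± 0.998 for Gdf15. The label is loose, since Inha encodes the inhibin alpha subunit and not an activin subunit. Inha was lower in every H2O2/saline library than in any control library, beside 18.7% of all genes without overlap.

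**Figure D5:**
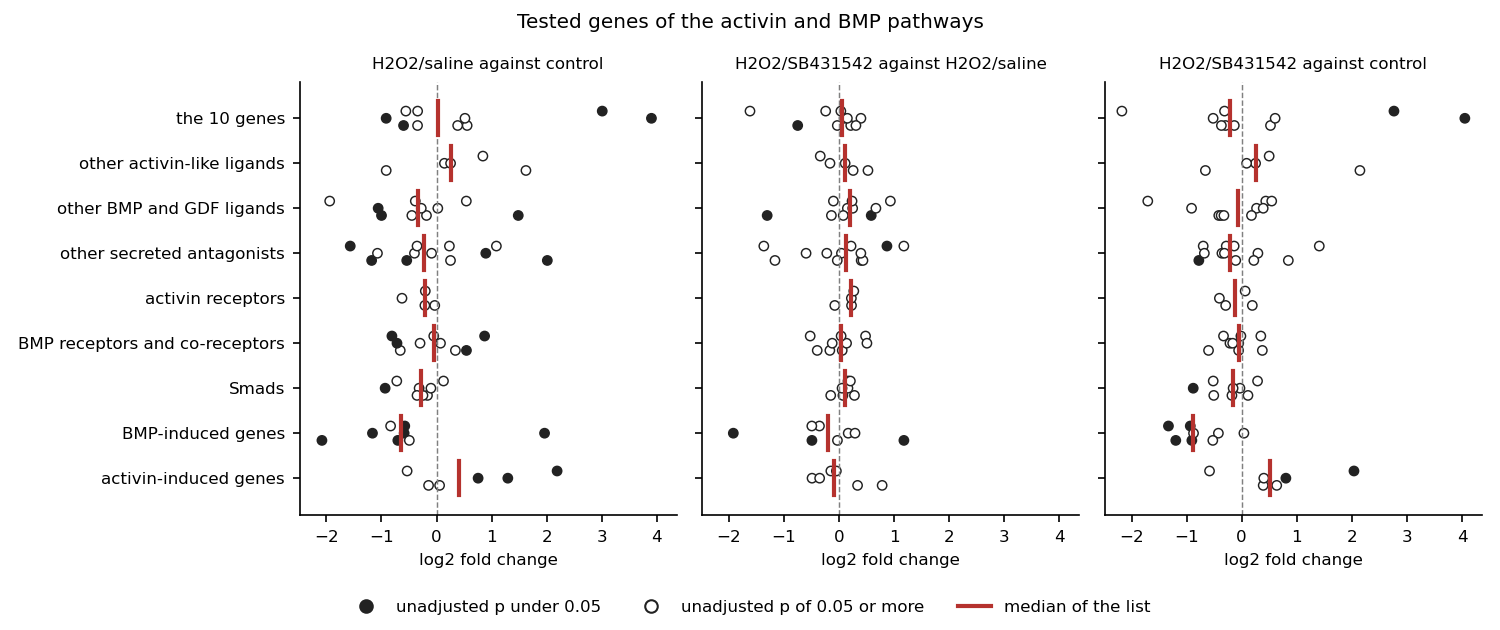
Log2 fold change of every tested gene of the 10 and of 8 pathway lists in each comparison (horizontal axes); filled points have an unadjusted edgeR p under 0.05 and red bars mark the median of a list. The median of the BMP-induced genes lies at -0.65 in H2O2/saline and at -0.89 in H2O2/SB431542, each against control.

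The genes whose log2 CPM over the 9 libraries was most like that of Grem1 were Abcc4 (Pearson r = 0.98), Slc35f6 (r = 0.98), Tvp23a (r = 0.98), Fut8 (r = 0.97) and Gm15318 (r = 0.97). Those most like Bambi were Hspe1 (r = 0.99), AC121965.1 (r = 0.98), Atp5c1 (r = 0.98), Pomp (r = 0.98) and Mt2 (r = 0.98). The points share group, library and depth, so these values describe likeness alone. Among the 10 genes, Grem1 ran with Inhba (r = 0.81) and against Bmp7 (r = -0.86) and Bmp2 (r = -0.82).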

How the data were processed

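RNA of 9 bladders was sequenced after poly-A selection, and the authors processed the reads with strand NGS on GRCm39. No version, aligner or annotation is given in the sources used here. The deposited raw columns are the authors' expected counts per gene, not scaled and mostly fractional. A second set of deposited columns holds the authors' log2 values, with a single factor per library and each gene's mean subtracted, and served only as an alternative.

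Expected counts were rounded, filtered with filterByExpr (19314 of 53342 genes) and scaled with TMM factors. All 9 libraries entered 1 edgeR quasi-likelihood fit (edgeR 4.0.16, R 4.3.3) with a mean per group and no covariate, with Benjamini-Hochberg adjustment over the genes tested in each of 3 comparisons. Totals of 37329213 to 41055328 counts per library limit precision for Grem1, Fst and Nog, and the floor of 3 counts (0.0686 to 0.0867 CPM) covers counting error only. Standard errors came from the fold change and F statistic, and 95% intervals from the t distribution. CPM use TMM factors, log2 CPM a prior count of 2, and CPM per kb exon lengths of GENCODE on GRCm38. Code was tested on simulated data. Alternatives used DESeq2 1.42.0, limma 3.58.1 (limma-voom), other factors, other filters, left-out libraries and a replicate block.

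The labels do not say that replicate numbers pair libraries across groups. Deviations from group means of same-numbered libraries correlated at 0.312, 0.119 and 0.112 (H2O2/saline and control), 0.514, 0.201 and 0.129 (H2O2/SB431542 and H2O2/saline) and 0.321, 0.0399 and 0.0770 (H2O2/SB431542 and control). Libraries of different numbers were not compared in this way, and the libraries numbered 1 shared high adipocyte markers. These values therefore do not establish a pairing, and the block served as an alternative fit only. No pair of libraries agreed within sampling noise. The members and lists were chosen with earlier results of these data known. All 10 genes are named, and from each list any gene called plus the 3 with the smallest p in H2O2/saline against control, a few of which are not reported here. Of the list entries, 1 activin receptor symbol was not matched.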

Additional observations from a re-analysis of the deposited data

How the results depend on the processing

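Of the alternatives for single fold changes, 529 kept direction and side of the threshold, 16 passed where the fit of all libraries did not and 16 changed sign. With all 9 libraries, edgeR called 0 of the 10 genes in each comparison. In H2O2/saline against control, DESeq2 called 2 (Grem1 and Fst), no filter on low counts 3 (Bmp2, Fst and Grem1), replicates 2 and 3 only 3 (Bmp2, Bmp7 and Grem1), and leaving out 1 library 0 to 3, with 3 without H2O2/saline 1. In H2O2/SB431542 against control, DESeq2, no filter and replicates 2 and 3 only each called 1 (Grem1), and leaving out 1 library 0 to 1, with 1 without H2O2/saline 1. A minimum of 10 counts in every library left 7 of the 10 genes. In H2O2/SB431542 against H2O2/saline every alternative called 0 of the 10. Over all genes in H2O2/saline against control, edgeR called 10, DESeq2 1387, no filter 1579, at least 10 counts 323, only the 2 groups compared 4, replicates 2 and 3 only 2521, and leaving out 1 library 0 to 1822, with 1822 without H2O2/saline 1. The counts in H2O2/SB431542 against H2O2/saline were 0, 34 with DESeq2, 274 with no filter, 234 with replicates 2 and 3 only and 0 to 197 with 1 library left out. Those in H2O2/SB431542 against control were 3, 174, 439 and 449 in the same order, 23 with only the groups compared and 0 to 83 with 1 library left out. In H2O2/saline against control, edgeR with all libraries called 0 of 62 other pathway genes tested. DESeq2 called 7 of 63 (6.87% of all genes), and at least 10 counts 4 of 54 (323 genes in all). The replicate block called 8 of 62 (4.79% of all genes), no filter 14 of 75 (4.72%) and replicates 2 and 3 only 19 of 62 (13.1%). Leaving out 1 library called 0 to 14 of 62, with 14 without H2O2/saline 1 (9.43% of all genes). These counts of other pathway genes were added after the data were seen. They were at most 3 in H2O2/SB431542 against H2O2/saline and at most 7 in H2O2/SB431542 against control. With the replicate number as a block, edgeR called 1 of the 10 genes (Grem1) and 925 genes in all in H2O2/saline against control, 0 and 0 in H2O2/SB431542 against H2O2/saline, and 0 and 35 in H2O2/SB431542 against control. The labels give no such pairing.

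The fold changes that changed sign lay between -0.24 and 0.21 with all libraries. In H2O2/SB431542 against H2O2/saline, Inhba went to 0.000936 with at least 10 counts, 0.011 without H2O2/SB431542 2 and 0.17 without H2O2/saline 2, in a range of -0.13 to 0.17 when 1 library was left out. Inhbb went to -0.086 without H2O2/saline 1, -0.094 without H2O2/SB431542 1 and -0.29 with replicates 2 and 3 only (left-out range -0.094 to 0.26). Fst went to 0.13 with limma-voom, 0.21 with the authors' values and 0.65 without H2O2/saline 3 (left-out range -0.68 to 0.65), and Fstl3 to -0.025 with replicates 2 and 3 only. Bmp4 went to -0.14 without H2O2/saline 3 and -0.018 without H2O2/SB431542 3 (left-out range -0.14 to 0.27). Grem1 went to -0.34 without H2O2/saline 1, -0.0072 without H2O2/saline 3 and -0.51 without H2O2/SB431542 2 (left-out range -0.51 to 1.41). Fstl3, in H2O2/SB431542 against control, went to 0.099 without control 2 (left-out range -0.44 to 0.099). The cause was not tested. Low counts of Grem1, Fst and Nog limit what can be detected.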
